A study of Mus musculus with 2 samples.

Results

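Vsx1-positive ON cone bipolar cells of the mouse retina at postnatal day 7 (P7) were described in a library of retinas lacking Mettl14 in retinal progenitors and in a control library. The cells were barcodes with at least 1 UMI of Vsx1, at least 1 UMI of Isl1 and 0 UMIs of Prkca, Tfap2b, Rbpms and Chat, where a UMI is a unique molecular identifier that counts a captured RNA molecule. They were sought among barcodes with at least 1000 UMIs, at least 500 detected genes and at most 15% of UMIs from mitochondrial genes. The rule found 615 of 24841 such barcodes, 256 of 13480 in the Mettl14-cKO library and 359 of 11361 in the control library. These barcodes are called members below. The cells were chosen by the measured UMI counts of these 6 genes, so the levels of those genes are given as a description only.

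Cone bipolar cells carry the signal of cone photoreceptors to ganglion and amacrine cells. The ON types invert its sign at their dendrites: glutamate from the photoreceptor acts on the metabotropic receptor mGluR6 (Grm6), whose G protein Go closes the cation channel TRPM1, and light reopens it by lowering glutamate. Vsx1 is a paired-like homeodomain factor made by a subset of cone bipolar types, and Isl1 a LIM homeodomain factor made by ON bipolar cells, rod bipolar cells included. Prkca marks rod bipolar cells, Tfap2b amacrine and horizontal cells, Rbpms ganglion cells and Chat starburst amacrine cells. Bipolar cells are among the last neurons of the mouse retina to be born, and their dendrites and ribbon synapses are still forming at the age studied.

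The Mettl14-cKO retinas carried Mettl14 fl/fl with the transgene Chx10-Egfp/Cre, and the age-matched controls carried Mettl14 fl/fl or fl/wt with no Cre named. METTL14 is the partner of METTL3 in the nuclear complex that writes N6-methyladenosine (m6A) on RNA, and the transgene expresses Cre in retinal progenitors, where it is known to act as a mosaic. Dissociated P7 retina was profiled by droplet sequencing of RNA 3' ends (10x Genomics kit v3.1), 1 library per genotype. The number of animals pooled, their sex and any batch are not given in the labels, so genotype, animal and preparation cannot be told apart, and no test between the libraries was possible. The intervals below are 95% intervals for counting error only.

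The Mettl14-cKO library held 15319 barcodes with 59856468 UMIs and the control library 13287 barcodes with 55921787 UMIs, with a median of 3213 and 3493 UMIs per kept barcode. Among the kept barcodes, 39 sequences occurred in both libraries. No barcode was a member in both libraries, and 1 control member's barcode was also a kept barcode of the Mettl14-cKO library. The members held 1331449 UMIs in the Mettl14-cKO library and 1918651 in the control library. A Mettl14-cKO member had a median of 3861 UMIs and 1982 genes, and a control member 4244 UMIs and 2150 genes. Xist, the X-inactivation RNA, was found in 100% of Mettl14-cKO members and 99.4% of control members.

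The promoters of 4 marker genes of the type, Vsx1 of the rule among them, are shown because the results below separate them: the RNA of Lhx3 and Scgn stood far lower in Mettl14-cKO members, and that of Grm6 did not. Each is the RefSeq sequence from 250 bases before to 50 bases after the gene's start in GRCm38.p6, the assembly also called mm10, printed 5' to 3' on the gene's strand with the homeodomain core TAAT, or its complement ATTA, in capitals. All 4 genes matched a RefSeq entry. Vsx1 lies at chr2:150689088-150689387 on the minus strand, Lhx3 at chr2:26208200-26208499 on the minus strand, Scgn at chr13:23991165-23991464 on the minus strand and Grm6 at chr11:50850435-50850734 on the plus strand.
Lhx3: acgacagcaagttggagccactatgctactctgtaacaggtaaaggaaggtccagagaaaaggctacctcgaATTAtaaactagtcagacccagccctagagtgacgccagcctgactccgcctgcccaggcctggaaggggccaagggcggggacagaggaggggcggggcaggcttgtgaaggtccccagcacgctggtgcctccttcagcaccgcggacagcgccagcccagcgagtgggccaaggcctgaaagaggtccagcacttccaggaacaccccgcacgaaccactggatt
Scgn: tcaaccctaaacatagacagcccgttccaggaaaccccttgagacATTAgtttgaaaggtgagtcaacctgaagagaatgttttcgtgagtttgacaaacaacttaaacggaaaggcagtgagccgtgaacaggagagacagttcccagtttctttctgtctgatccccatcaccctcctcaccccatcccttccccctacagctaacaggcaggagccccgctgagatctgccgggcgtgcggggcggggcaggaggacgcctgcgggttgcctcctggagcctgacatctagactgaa
Grm6: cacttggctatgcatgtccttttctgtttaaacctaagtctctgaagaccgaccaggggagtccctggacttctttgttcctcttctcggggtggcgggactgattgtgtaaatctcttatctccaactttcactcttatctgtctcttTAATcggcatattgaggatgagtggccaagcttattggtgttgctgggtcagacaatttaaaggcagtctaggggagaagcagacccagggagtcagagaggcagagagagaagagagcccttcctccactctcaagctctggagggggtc
Vsx1: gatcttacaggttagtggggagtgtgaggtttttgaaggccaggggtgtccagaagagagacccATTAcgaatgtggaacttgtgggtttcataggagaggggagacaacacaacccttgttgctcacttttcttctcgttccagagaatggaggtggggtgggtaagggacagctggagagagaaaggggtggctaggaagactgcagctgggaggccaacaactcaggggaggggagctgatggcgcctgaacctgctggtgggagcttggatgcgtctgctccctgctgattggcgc
Each of the 4 windows held the core 1 time, on either strand, and the window of another RefSeq start of Lhx3 held it 0 times. The core occurs in 58.0% of all RefSeq promoter windows of this length (19064 of 32851), so it does not set these 4 apart. The longer bicoid-type core TAATCC, found in 7.06% of windows on either strand, was in none of them. Its 4 leading letters are the core itself, so every TAATCC match also holds a TAAT match. A match describes the letters only.

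Members made up 1.90% of kept barcodes in the Mettl14-cKO library (1.68% to 2.14%) and 3.16% in the control library (2.85% to 3.50%). With every barcode thinned to 1500 UMIs, which left out 1620 Mettl14-cKO and 1432 control barcodes of lower depth, the shares were 1.35% (160 cells) and 2.78% (276 cells). Of barcodes that passed the rest of the rule and had a UMI of Vsx1, 35.1% of 730 in the Mettl14-cKO library also had Isl1, against 61.9% of 580 in the control library. After thinning these shares were 30.4% of 527 and 54.2% of 509. The barcodes with Vsx1 and without Isl1 went the other way, at 3.52% of kept barcodes in the Mettl14-cKO library (474 cells) and 1.95% in the control library (221 cells). Fewer cells of a type and fewer cells in which its genes are detected cannot be told apart from a rule that reads those genes.

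The rule's threshold ran through the cells more closely in the Mettl14-cKO library. Exactly 1 UMI of Vsx1 admitted 78 of 256 Mettl14-cKO members and 85 of 359 control members. For Isl1 the counts were 92 and 51. A total of 34 Mettl14-cKO and 17 control members had 1 UMI of each gene. The median member had 2 UMIs of Vsx1 and 2 of Isl1 in the Mettl14-cKO library, and 4 and 7 in the control library. Before the 4 exclusions, 525 Mettl14-cKO and 714 control barcodes had both genes. A UMI of Prkca alone put out 156 and 266 of these, of which 69 and 96 had exactly 1 such UMI. Tfap2b alone put out 55 Mettl14-cKO and 40 control barcodes, Rbpms 10 and 8, and Chat 0 in either library. Without the cell filter 260 and 362 barcodes met the rule, and 1 in each library missed the minimum of 1000 UMIs by 100 or less.

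Free RNA in the droplets can place a UMI of these genes in other cells. Among barcodes with at least 2 UMIs of Tfap2b, which marks amacrine and horizontal cells, 1.996% of 1653 in the Mettl14-cKO library and 2.64% of 1098 in the control library had both Vsx1 and Isl1, at median depths of 4033 and 4772 UMIs. With the other exclusions of the rule applied, the shares were 0.847% and 1.002% in these barcodes. Set beside them, members were 1.90% and 3.16% of all kept barcodes. How many members owe a rule UMI to free RNA or to a doublet was not tested.

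The marker genes that the rule did not use were found in a larger share of control than of Mettl14-cKO members. The name is less well borne out in the Mettl14-cKO library. Grm6 was found in 72.3% of Mettl14-cKO members (66.4% to 77.7%) and 89.7% of control members (86.1% to 92.6%). Scgn, which encodes the calcium-binding protein secretagogin of cone bipolar cells, was found in 21.5% (16.6% to 27.03%) and 57.1% (51.8% to 62.3%). Lhx3, a LIM homeodomain factor of a subset of bipolar cells, was found in 10.2% (6.74% to 14.5%) and 50.7% (45.4% to 56.0%). In barcodes with Tfap2b and none of the other rule genes, at median depths of 3205 and 3637 UMIs, the background shares were 2.34% and 3.13% for Grm6, 1.06% and 1.42% for Scgn, and 0% and 0.303% for Lhx3, where 0 of 2179 Mettl14-cKO barcodes held a UMI. All 3 markers therefore stood above background in the members of both libraries.

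The gap was also present at matched depth. At 1500 UMIs per cell, with 251 Mettl14-cKO and 351 control members, Grm6 was found in 53.8% and 64.7%, Scgn in 8.37% and 33.9%, and Lhx3 in 3.59% and 25.1%. The intervals of Scgn and Lhx3 were separate at both depths, and those of Grm6 (47.4% to 60.1%, and 59.4% to 69.7%) overlapped slightly after thinning. Trpm1, the channel that mGluR6 gates, was found in 32.7% of Mettl14-cKO and 40.5% of control members after thinning. Otx2, a homeodomain factor of photoreceptors and bipolar cells, was found in 56.2% and 68.1%.

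**Figure D1:**
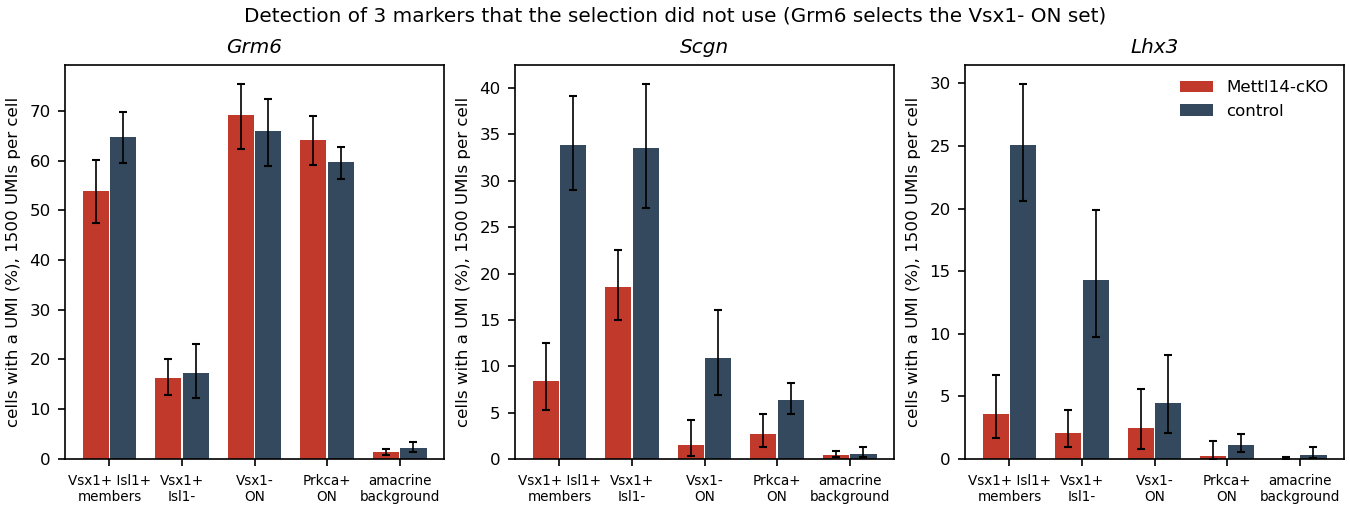
Share of cells with at least 1 UMI of Grm6, Scgn or Lhx3 (percent, after thinning to 1500 UMIs) in 5 sets of barcodes, Mettl14-cKO in red and control in blue, with 95% Clopper-Pearson intervals. In Vsx1+ Isl1+ members Lhx3 was found in 3.59% and 25.1% and Scgn in 8.37% and 33.9%, while Grm6 was found in 53.8% and 64.7%.

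The markers combined differently in the members of the 2 libraries. None of Grm6, Scgn and Lhx3 was seen in 52 of 256 Mettl14-cKO members (20.3%) and in 19 of 359 control members (5.29%). All 3 were seen in 13 (5.08%) and 128 (35.7%). After thinning, 39.4% and 19.1% had none and 0.398% and 9.12% had all 3. Within thinned members that had Grm6, Lhx3 was found in 3.70% of 135 Mettl14-cKO cells and 27.3% of 227 control cells, and Scgn in 5.19% and 35.2%. Trpm1 in the same cells was alike, at 45.9% and 44.9%, with intervals of 37.3% to 54.7% and 38.4% to 51.7%. So the gap in Lhx3 and Scgn was present among cells that detected the ON receptor itself, and the gap in Trpm1 was not seen there.

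**Figure D2:**
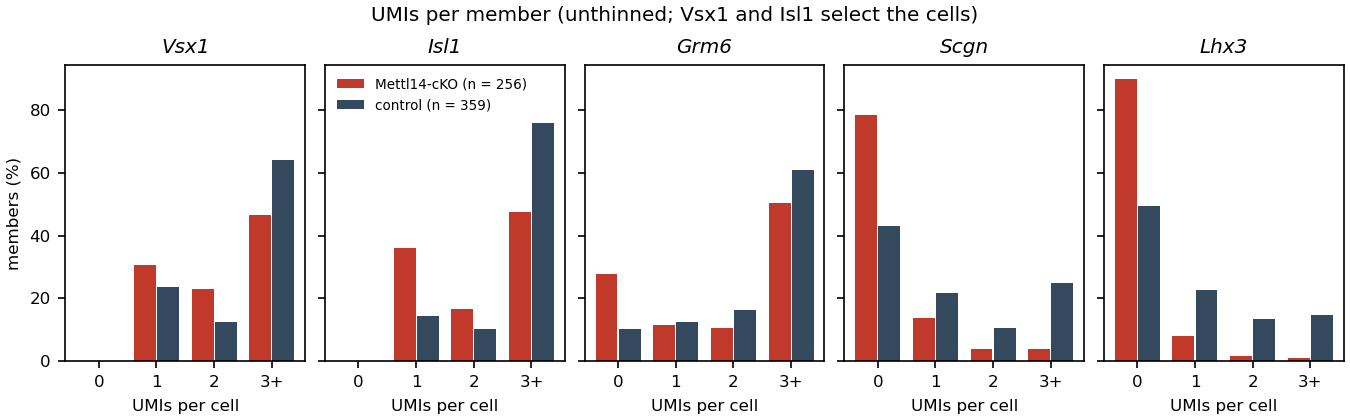
Members (percent) with 0, 1, 2 or at least 3 UMIs of each marker, unthinned, for 256 Mettl14-cKO (red) and 359 control members (blue). Vsx1 and Isl1 chose the cells and so have no cell at 0; 230 Mettl14-cKO and 177 control members had 0 UMIs of Lhx3.

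Levels are given below as UMIs summed over the members of a library per 1000000 member UMIs (CPM), and ratios as log2 of Mettl14-cKO over control. A gene was called higher or lower when its ratio was at least 1.5-fold and it had at least 50 UMIs over both libraries. The targeted gene Mettl14 (chr3:123368297-123386108, minus strand) had 18 UMIs in Mettl14-cKO members and 49 in control members, or 13.5 and 25.5 CPM, a log2 ratio of -0.92 (-1.78 to -0.11). It was found in 6.25% and 12.8% of members, and at matched depth in 3.19% and 3.42%, which is not a detectable difference, with a ratio of -0.22 after thinning. The thinned shares are of 251 and 351 members, so that ratio rests on few UMIs and does not settle the size of the difference. Here and below, thinned ratios of single genes were not held to the minimum of 50 UMIs. Mettl14 was lower in the Mettl14-cKO library in the 3 other sets of bipolar barcodes too. The ratios were -1.53 with Vsx1 and no Isl1, -1.81 with Isl1 and Grm6 and no Vsx1, and -1.17 with Isl1 and Prkca. The -1.81 rests on 7 and 24 UMIs, under the minimum of 50. In the Tfap2b barcodes without the other rule genes, Mettl14 had 120 and 78 UMIs and a ratio of -0.41 (-0.83 to 0.02). The labels do not name the floxed exons, and a 3' tag outside them would still be counted, so remaining UMIs do not show intact Mettl14.

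Over all genes, 7564 had enough UMIs in the members. Of these 840 (11.1%) were called higher and 916 (12.1%) lower, 23.2% either way, and the median log2 ratio was -0.06. These shares are the background for every count of list genes below. Of the members' own UMIs, 2.77% in the Mettl14-cKO library and 3.75% in the control library were mitochondrial, and 13.7% and 11.2% came from ribosomal protein genes.

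Among transcription factors of bipolar cells, Lhx3, Bhlhe23, Nfia, Irx6 and Six3 stood lower in Mettl14-cKO members, while Otx2, Neurod4 and Crx were not called. Of the 20 measured that did not choose the cells, 5 were lower and 3 higher (background 12.1% and 11.1%), and their median was 0.18. Lhx3 had 26.3 CPM in Mettl14-cKO members (18.3 to 36.6) and 194 CPM in control members (175 to 215), a log2 ratio of -2.88 (-3.43 to -2.38), or -2.25 among members with at least 2 UMIs each of Vsx1 and Isl1. Bhlhe23, a bHLH factor needed for rod bipolar maturation in mouse, had 23.3 and 91.2 CPM (-1.97, from -2.57 to -1.41, and -1.38 after thinning). Irx6, an Iroquois homeodomain factor of cone bipolar types, had 36.8 and 102 CPM (-1.47), Nfia, a nuclear factor I family member, 11.3 and 40.7 CPM (-1.85), and Six3 249 and 501 CPM (-1.01). These 5 factors were each at least 2-fold lower in Mettl14-cKO members. The rule's own genes were also lower, Vsx1 at 646 and 1005 CPM and Isl1 at 635 and 1365 CPM. Otx2 had 750 and 740 CPM (0.02), Neurod4 a ratio of 0.26 and Crx one of 0.14, none of which was called.

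Genes known from OFF cone bipolar cells went both ways, with 2 of 7 measured higher and 2 lower. Bhlhe22 had 128 CPM in Mettl14-cKO members and 66.2 CPM in control members (0.96, from 0.62 to 1.30), and Fezf2, a zinc finger factor, 146.5 and 84.4 CPM (0.79, from 0.49 to 1.10). Grik1, a kainate receptor subunit through which OFF cells sense glutamate, had 52.6 and 88.1 CPM (-0.74). Its auxiliary subunit gene Neto1 had only 3 UMIs in Mettl14-cKO members and 47 in control members (2.25 and 24.5 CPM, -3.44, from -5.77 to -1.81). Lhx4, a LIM homeodomain factor, was not called at 0.42. The call of Grik1 was lost after thinning (-0.12, though -1.51 with at least 2 UMIs each of Vsx1 and Isl1), and that of Fezf2 with at least 2 UMIs each (0.55). Prdm8, a factor of rod bipolar and other bipolar cells, was higher at 169 and 102 CPM (0.73), a call also lost after thinning (0.46).

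The mGluR6 cascade was lower in its G protein and in the complex that switches it off, while the receptor and the channel were not called. Of 13 measured genes 6 were lower and 0 higher, with a median of -0.49. Gng13, the G protein gamma subunit, had 14.3 CPM in Mettl14-cKO members (8.59 to 22.3) and 86.5 CPM in control members (73.9 to 101), a ratio of -2.60. Its beta partner Gnb3 had 561 and 1152 CPM (-1.04, from -1.16 to -0.92), and the alpha subunit Gnao1 304 and 591 CPM (-0.96, from -1.13 to -0.79). All 3 subunits of the heterotrimer therefore stood lower. Rgs11 and Rgs7, the GTPase-activating proteins that end the signal of Go, had ratios of -2.48 and -1.69, at 12.02 and 67.2 CPM and at 8.26 and 26.6 CPM, and their binding partner Gnb5 had -0.73. Grm6 had 603 and 674 CPM (-0.16, from -0.29 to -0.03), Trpm1 302 and 352 CPM (-0.22), and Gpr179, the orphan receptor that anchors the RGS proteins, a ratio of -0.49. The anchoring proteins Nyx and Lrit3 were below the minimum of 50 UMIs.

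Of the genes of specific cone bipolar types, 3 of 9 measured were lower and 0 higher, with a median of -0.52. Scgn had 70.6 CPM in Mettl14-cKO members (57.1 to 86.4) and 317 CPM in control members (293 to 344), a ratio of -2.17. Cabp5, a calmodulin-like calcium-binding protein of bipolar cells, had 87.1 and 142 CPM (-0.70), and Serpini1, neuroserpin, 19.5 and 46.4 CPM (-1.25). After thinning Serpini1 had a ratio of -0.02 and was no longer called, but only 4.38% of thinned Mettl14-cKO and 4.84% of thinned control members held a UMI of it. Cabp2, a relative of Cabp5 outside this list, was among the lowest ratios of all, at 8.26 and 50.6 CPM (-2.61).

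At the output end of the cell, 7 of 24 ribbon synapse and release genes were lower and 0 higher, with a median of -0.43. Cacna1f, the L-type channel of ribbon terminals, had 10.5 CPM in Mettl14-cKO members and 36.0 CPM in control members (-1.77, from -2.72 to -0.93). Slc17a7, the vesicular glutamate transporter VGLUT1, had 52.6 and 141 CPM (-1.43, from -1.83 to -1.04, and -2.30 after thinning). The thinned value rests on few Mettl14-cKO UMIs, since 3.19% of thinned Mettl14-cKO and 16.2% of thinned control members held one. The vesicle proteins Sv2a and Sv2b had ratios of -1.27 (-1.98 after thinning) and -0.81, and synapsin Syn1 one of -1.35. The core fusion genes Snap25 and Vamp2, at -0.57 and -0.56, fell just short of 1.5-fold and were not called. Syt1, at -0.40, and the ribbon component Ctbp2, at -0.10, were not called either.

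Genes for receptors of incoming signals were lower for 7 of 11 measured and higher for 0, with a median of -0.64. Gabrr1, the rho subunit of the GABA receptor at bipolar terminals, had 51.8 CPM in Mettl14-cKO members and 139 CPM in control members (-1.42, from -1.82 to -1.03). The AMPA receptor subunit Gria2 had 99.9 and 205 CPM (-1.04), and another AMPA subunit, Gria4, 24.8 and 40.1 CPM (-0.70). After thinning Gabrr1 was at -0.65, and Gria2, at -0.52, was no longer called. Of the 4 genes not called, Gabbr1, a GABA-B receptor subunit, had a ratio of -0.18.

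Adhesion and lamination genes, some of which guide bipolar axons to their layer, were lower for 7 and higher for 3 of 21, with a median of 0.06. Ntng1, a membrane-anchored netrin, had 109 CPM in Mettl14-cKO members and 342 CPM in control members (-1.65, from -1.92 to -1.39), and the cadherin Cdh8 47.3 and 123 CPM (-1.38, from -1.80 to -0.97). Cdh11, Sema6a and Nrxn2 were higher, at 0.86, 0.83 and 0.80. Of 16 ion channel and calcium genes 5 were lower and 1 higher: Kcnma1, the large-conductance potassium channel, had 138 and 359 CPM (-1.38), Atp1b2, a sodium pump subunit, 173 and 278 CPM (-0.69, and -0.54 after thinning, which is not called), and Calb2, calretinin, 35.3 and 16.2 CPM (1.13).

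**Figure D3:**
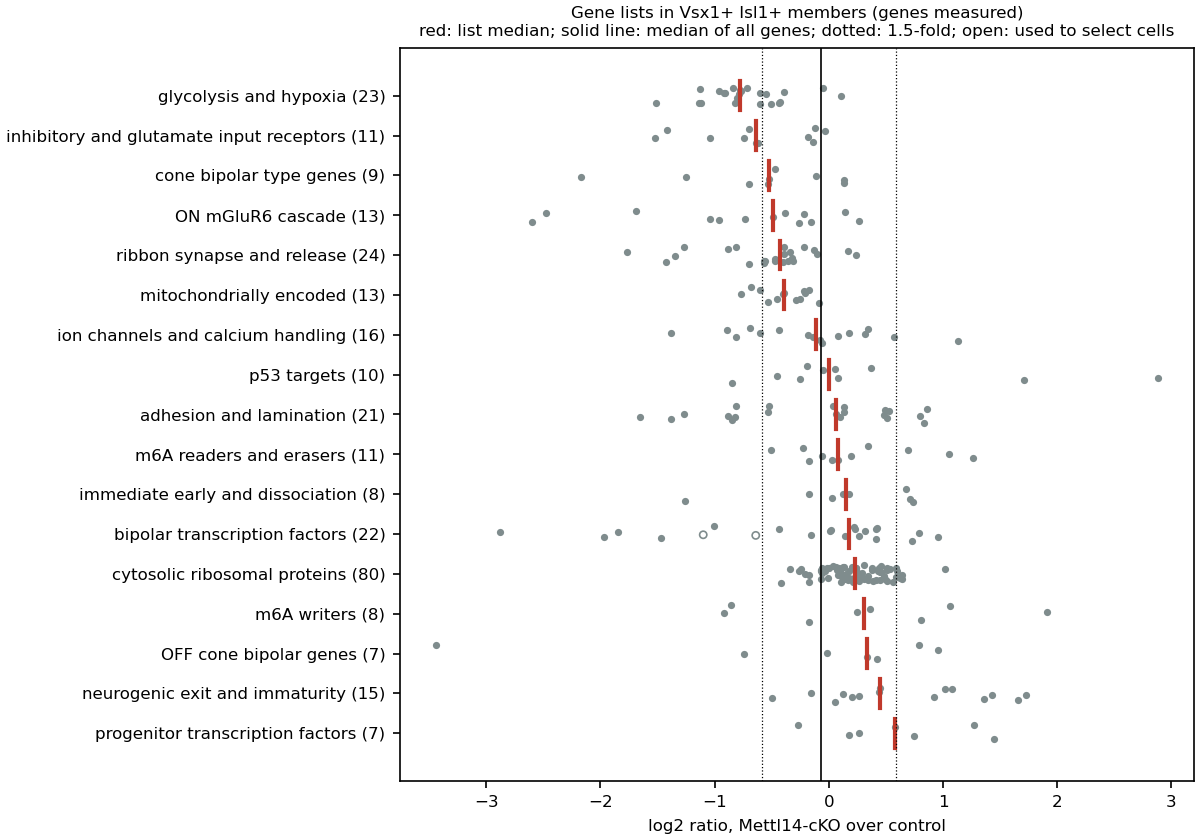
Each point is a gene of a list with at least 50 UMIs, placed by its log2 ratio in members, Mettl14-cKO over control; red bars are list medians, the solid line is the median of all 7564 genes (-0.06), dotted lines mark 1.5-fold and open points are genes that chose the cells. The medians run from -0.78 for glycolysis to 0.58 for progenitor transcription factors.

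Genes of young neurons stood higher in Mettl14-cKO members, with 7 of 15 neurogenic and immaturity genes higher and 0 lower (background 11.1% and 12.1%) and a median of 0.45. The tubulin genes Tubb2b and Tubb3 had 2117 and 657 CPM in Mettl14-cKO members and 638.5 and 256 CPM in control members, ratios of 1.73 (1.63 to 1.83) and 1.36 (1.20 to 1.52). Tubb2b was found in 90.04% of thinned Mettl14-cKO members and 58.7% of thinned control members. Stmn2, a microtubule-destabilising protein of growing axons, had 87.1 and 27.6 CPM (1.66, from 1.18 to 2.15). Gadd45g, a growth arrest gene of newborn retinal neurons, had 105 and 39.1 CPM (1.43, and 0.84 among members with a UMI of Grm6), and Insm1, Cdkn1c and Sox11 had ratios of 1.08, 1.02 and 0.92. Among the 8 not called, Sox4 had a ratio of 0.45, Hes6 0.44, Neurod4 0.26, Stmn1 0.12, Btg2 0.05, Neurod1 -0.16 and Cdkn1b -0.50.

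Progenitor transcription factors showed 3 of 7 measured higher and 0 lower, with a median of 0.58 that ran from 0.26 with a minimum of 20 UMIs to 1.48 after thinning. Rax, the retinal homeobox factor, had 122 CPM in Mettl14-cKO members and 44.8 CPM in control members (1.45, from 1.06 to 1.84), Lhx2 39.1 and 16.2 CPM (1.27), and Pax6 68.4 and 40.7 CPM (0.75). Another 11 factors of the list were below the minimum, Sox2 and Hes1 among them. Of 20 genes of S, G2 and M phase 18 were below the minimum, and Mki67, Top2a, Cdk1, Ube2c and Cenpf together had 18 UMIs in Mettl14-cKO members and 12 in control members, 13.5 and 6.25 CPM. Of the 2 measured, Pcna, the sliding clamp of DNA replication, had 37.6 CPM in Mettl14-cKO members and 63.1 CPM in control members (-0.75, called lower), and Mcm7, a subunit of the replicative helicase, had 45.8 and 34.9 CPM (0.39, not called).

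The genes that write and read m6A did not move as a block. Of 8 writer genes 3 were higher and 2 lower, the lower being Mettl14 and its partner Mettl3 (17.3 CPM in Mettl14-cKO members and 31.3 CPM in control members, -0.86, from -1.62 to -0.14). Rbm15 and Rbm15b, RNA-binding adaptors of the writer complex, had 35.3 and 63.1 CPM in Mettl14-cKO members and 9.38 and 30.2 CPM in control members, ratios of 1.91 (1.10 to 2.78) and 1.06 (0.56 to 1.57). Wtap, its scaffold, had 93.9 and 53.7 CPM (0.81). Of 11 readers and erasers 3 were higher: Ythdf2 had 139 and 67.2 CPM (1.05, from 0.72 to 1.38), Igf2bp3 33.8 and 14.1 CPM (1.26) and Ythdf1 64.6 and 40.1 CPM (0.69). Ythdf2, which recruits RNA decay, was found in 46.5% of Mettl14-cKO members and 28.1% of control members. The erasers Fto and Alkbh5 had ratios of -0.06 and 0.03.

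Of 10 measured p53 targets 2 were higher and 1 lower, with a median of 0.00. Cdkn1a, the cyclin-dependent kinase inhibitor p21, had 87 UMIs in Mettl14-cKO members and 17 in control members. Its levels were 65.3 and 8.86 CPM, a ratio of 2.88 (2.12 to 3.73). The ratio after thinning, 4.73, rests on very few control UMIs, since only 0.285% of thinned control members held one. The nuclease gene Aen had 44.3 and 13.6 CPM (1.71), and the pro-apoptotic gene Bbc3 26.3 and 47.4 CPM (-0.85). Mdm2 and Ccng1 had ratios of -0.05 and -0.45 (-1.10 for Ccng1 after thinning), so that the list held a few large ratios and no common direction.

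Glycolysis and hypoxia genes had the lowest list median, -0.78, with 16 of 23 lower and 0 higher. Aldoa, aldolase A, had 600.1 CPM in Mettl14-cKO members and 1320 CPM in control members (-1.14, from -1.25 to -1.02), and Eno1, enolase 1, 403 and 883 CPM (-1.13, from -1.27 to -0.99). The phosphofructokinase Pfkp had 44.3 and 126 CPM (-1.51, and -2.10 after thinning) and hexokinase Hk1 93.9 and 204 CPM (-1.12). Gapdh, Ldha and Pkm were not called, at -0.51, -0.43 and -0.39. All 13 mitochondrially encoded genes had ratios below 0, from -0.77 for mt-Co3 to -0.09 for mt-Atp8, and 3 were called lower. Of 80 ribosomal protein genes 7 were higher and 0 lower, with a median of 0.23.

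Of 8 measured immediate early and dissociation genes 3 were higher and 1 lower. Jund had 559.5 CPM in Mettl14-cKO members and 336 CPM in control members (0.74), whereas Egr1 had 9.76 and 23.5 CPM (-1.26). Fos, Fosb and Junb were below the minimum, and Jun, at 119 and 109 CPM, was not called.

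The 15 lowest ratios in the members ran from -3.81 to -2.06. Pcp4l1, a Purkinje cell protein 4-like gene, had 12 UMIs in Mettl14-cKO members and 243 in control members, 9.01 and 127 CPM, a ratio of -3.81 (-4.79 to -2.98). Otor, otoraplin, a small secreted protein, had 21.8 and 209.5 CPM (-3.27, from -3.86 to -2.72), and Rprm, reprimo, 54.1 and 443.5 CPM (-3.04, from -3.40 to -2.69). Scg2, secretogranin II of dense-core vesicles, had 54.1 and 268 CPM (-2.31), Crym, mu-crystallin, 41.3 and 196.5 CPM (-2.25), Igfbp5 9.01 and 45.9 CPM (-2.35), Vwc2l 11.3 and 57.3 CPM (-2.35) and Hap1, huntingtin-associated protein 1, 33.8 and 141 CPM (-2.06). The noncoding genes A330008L17Rik and Gm30382 had -3.03 and -2.50. With Lhx3, Cabp2, Gng13, Rgs11 and Scgn these are the 15 lowest, where a gene needed 100 UMIs in all and detection in 10% of the members of a library. After thinning Crym was at -2.94, Igfbp5 at -1.69 and Vwc2l at -1.71, and with at least 2 UMIs each of Vsx1 and Isl1 Rgs11 was at -1.85 and Gm30382 at -1.77.

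The 15 highest ratios ran from 1.89 to 3.10, and 3 of them belonged to zinc finger genes of the Zfp series. Zfp942 had 84.9 CPM in Mettl14-cKO members and 9.90 CPM in control members (3.10, from 2.39 to 3.88), and Zfp748 and Zfp958 had ratios of 2.39 and 2.08. After thinning Zfp942 was at 3.69 and Zfp748 at 3.60. These 2 values rest on few control UMIs, since only 1.14% and 0.855% of thinned control members held one. The noncoding genes E430024I08Rik and 3222401L13Rik had ratios of 3.04 and 2.76, and 2610008E11Rik, 2610044O15Rik8 and AW209491 had 2.43, 2.32 and 2.32. Zinc finger genes, those of the Zfp series among them, often have closely similar copies. Counting may have split reads between them, so the level of any single copy is uncertain. 2610008E11Rik was found in 74.2% of Mettl14-cKO members and 28.4% of control members, the highest detection in Mettl14-cKO members among the 15. Among the others, Cdkn1a is described above, L3hypdh, a proline metabolism enzyme, had 105 and 18.2 CPM (2.53), Lcmt2, a tRNA-modifying enzyme, 64.6 and 13.6 CPM (2.25), the neuronal noncoding RNAs Snhg11 and Bc1 had 2.41 and 1.90, and Chid1 had 1.89. Abca4, the retinoid transporter of photoreceptor outer segments, had 101 and 18.8 CPM (2.42, but 1.41 after thinning and 1.79 with a UMI of Grm6 required), and its place beside rod transcripts is given with them below.

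**Figure D4:**
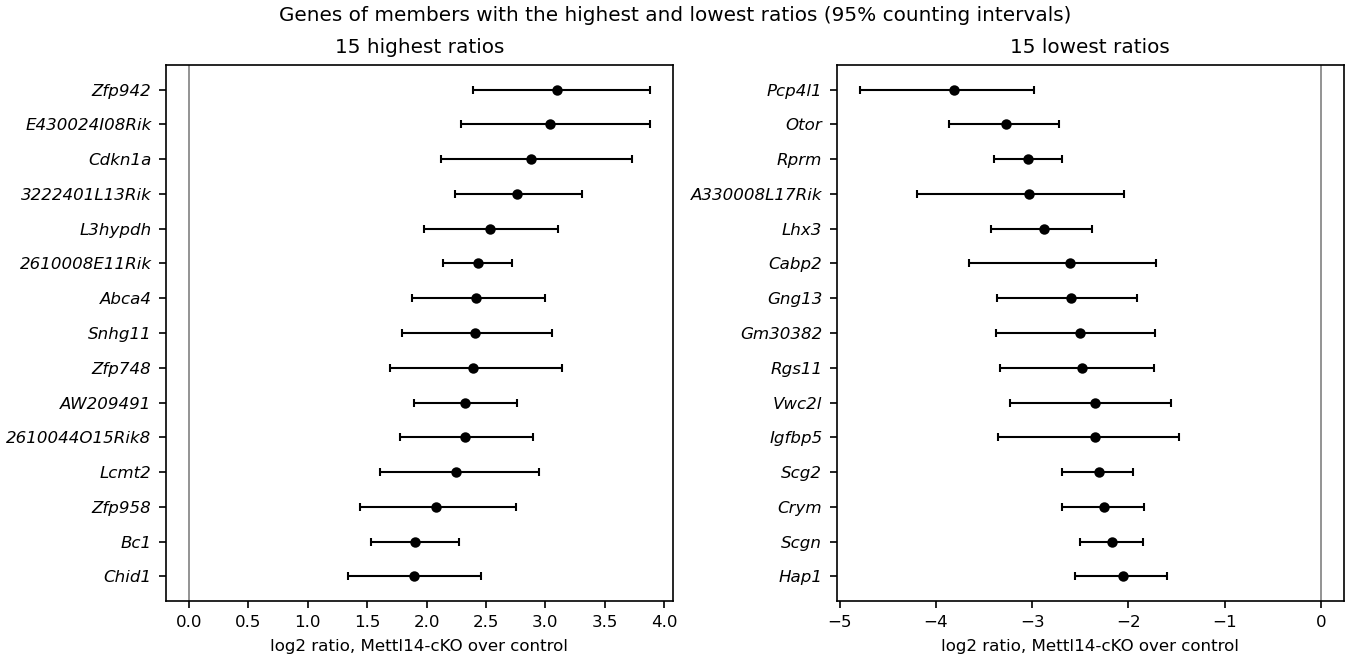
The 15 highest and 15 lowest log2 ratios in members, Mettl14-cKO over control, with 95% counting intervals. The highest is Zfp942 at 3.10 and the lowest Pcp4l1 at -3.81, and no interval reaches 0.

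Rod transcripts were present in the members and varied widely between them. The 10 rod markers summed to 4258 CPM in Mettl14-cKO members and 3052 CPM in control members, with all 10 detected in both. In the Tfap2b barcodes without the other rule genes they summed to 6126 and 6921 CPM, more than in the members. Rod genes called higher in Mettl14-cKO members were Gnat1 (1.73), Rp1 (681 and 236 CPM, 1.53), Pde6g (0.87), Nr2e3 (0.68) and, outside the list, Rom1 (0.60). After thinning Pde6g was at 0.34, Nr2e3 at 0.12 and Rom1 at 0.07, so that these 3 calls were lost at matched depth, and with at least 2 UMIs each of Vsx1 and Isl1 Nr2e3 was at 0.46 and Rom1 at 0.48. A doublet caller marked 15 of 256 Mettl14-cKO and 25 of 359 control members. The part of rod RNA or doublets in the ratios of rod genes and of Abca4 was not tested.

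The marker sums of the other classes were below that of rods. The 6 cone markers summed to 797 CPM in Mettl14-cKO members and 700.0 CPM in control members, with Opn1mw at 0 in Mettl14-cKO members. Of the cone markers Opn1sw, the short-wavelength opsin, was called higher at 82.6 and 11.99 CPM (2.78), as was Pde6h, a cone phosphodiesterase subunit, at 121 and 48.5 CPM (1.32), and none was called lower. The 8 Müller glia markers summed to 572 and 439 CPM, with Aqp4 at 0 in Mettl14-cKO members, and Apoe made up most of the sum at 384.5 and 230.4 CPM (0.74, but 0.54 after thinning and 1.33 with doublets removed). The list itself was mixed. Of 7 measured, 2 were higher (Apoe and Clu, the latter at 0.92) and 1 lower (Rlbp1, -0.86). The median was -0.22, with Slc1a3, Sox9, Dkk3 and Glul at -0.38, -0.27, -0.22 and -0.05. Amacrine markers summed to 57.1 and 50.04 CPM, and ganglion markers to 72.1 and 68.8 CPM with Pou4f2 at 0 in both. Horizontal markers summed to 108 and 40.7 CPM, nearly all from Onecut2 (1.49), with Lhx1 at 0 in Mettl14-cKO members and Tfap2b excluded by the rule. Microglial markers had 2 UMIs in each library, with Cx3cr1, P2ry12 and Csf1r at 0. Their part in the results was not tested.

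Malat1, Apoe and some rod genes were among those that differed most between members of a library. Over 3075 genes, the variance of thinned counts divided by their mean had a median of 1.007 in both libraries. Genes with the highest values in both were Malat1 (9.59 in Mettl14-cKO members and 7.05 in control members), Apoe (5.36 and 8.33), Dbi (2.08 and 8.27), Gm42418, Pcp4 and the rod genes Pde6g, Sag, Pdc, Nr2e3, Rp1 and Rom1. The markers of the type had lower values, though above that median, with Grm6 at 1.77 and 1.28, Scgn at 1.68 and 1.33 and Lhx3 at 1.32 and 1.21. Genes were not compared at like levels. The mean thinned count was 0.0438 and 0.311 for Lhx3, and 57.6 and 36.9 for Malat1. Malat1, a nuclear noncoding RNA, had 35136 CPM in Mettl14-cKO members and 24502 CPM in control members (0.52).

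Against the 3 other sets of bipolar barcodes summed, 12 genes had the highest ratios in the members of both libraries, Lhx3 and the homeobox gene Gsc2 among them. Since Vsx1 and Isl1 chose the sets, these ratios are a description. Gsc2 had 48.1 CPM in Mettl14-cKO members against 12.96 CPM in the other sets of that library, and 108 against 23.1 CPM in the control library. Reln, the secreted glycoprotein reelin, had 87.1 against 27.6 CPM and 213 against 18.8 CPM, and Lhx3 26.3 against 7.95 CPM and 194 against 24.1 CPM. Unc13c, a synaptic vesicle priming factor, had 113 against 44.96 CPM and 293 against 40.8 CPM. For these 4 genes, given as examples, the log2 of members over the other sets was 1.89, 1.66, 1.73 and 1.33 in the Mettl14-cKO library and 2.22, 3.50, 3.01 and 2.84 in the control library. Of the remaining 8, Lrp1b had 1.53 in the Mettl14-cKO library and 1.34 in the control library, Mir100hg 1.83 and 1.93, Ptprg 1.22 and 1.23 and Igf1 1.16 and 1.19. St6gal2 had 1.25 and 1.60, Prkcb 1.19 and 1.69, Fam135b 1.16 and 1.38, and Pcdh9 1.09 and 2.49. Grm6 differed little between members and the other sets (0.37 and 0.27). The 3 sets entered the sum in unlike parts in the 2 libraries. Prkca-positive barcodes gave 1840487 of its UMIs in the Mettl14-cKO library and 5375550 in the control library. Barcodes with Vsx1 and no Isl1 gave 1996587 and 928529. The ratios of the 2 libraries thus have different comparators, and their differences were not tested. The sum can also hide a single set. In the control library Lrp1b had 69.8 CPM in members and 119.8 CPM in barcodes with Isl1 and Grm6 and no Vsx1. In the Mettl14-cKO library it had 121.7 and 75.1 CPM. Mir100hg had 42.2 and 37.8 CPM in the same 2 control sets. Igf1 and Prkcb had 86.5 and 51.6 CPM in control members, and 78.6 and 47.4 CPM in control barcodes with Vsx1 and no Isl1.

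Many of the ratios in members had the same sign in the other bipolar sets, which share the libraries. In barcodes with Vsx1 and no Isl1, with Isl1 and Grm6 and no Vsx1, and with Isl1 and Prkca, Cdkn1a had ratios of 2.65, 2.61 and 3.25, set beside 2.88 in members. Tubb2b had 1.77 in the set without Isl1 and 2.10 in the Prkca-positive set, set beside 1.73 in members. Scgn had -1.82, -1.65 and -0.78, set beside -2.17 in members, and Lhx3 had -3.24 in the Vsx1-positive Isl1-negative barcodes, from 12.5 and 118.5 CPM. Glycolysis medians were -0.55, -0.83 and -0.35, and those of the mGluR6 cascade -0.23, -0.46 and -0.77. For receptors of incoming signals the medians were -0.17, -0.16 and 0.48, set beside -0.64 in members. Some of the lowest ratios in members did not recur at that size. Rprm, at -3.04 in members, had -0.36 with Isl1 and Grm6 and no Vsx1, and -0.40 with Isl1 and Prkca. Pcp4l1, at -3.81 in members, had -2.95 with Vsx1 and no Isl1, but 0.49 with Isl1 and Prkca. Whether any of these differs between sets was not tested, since each rests on 1 library per genotype.

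**Figure D5:**
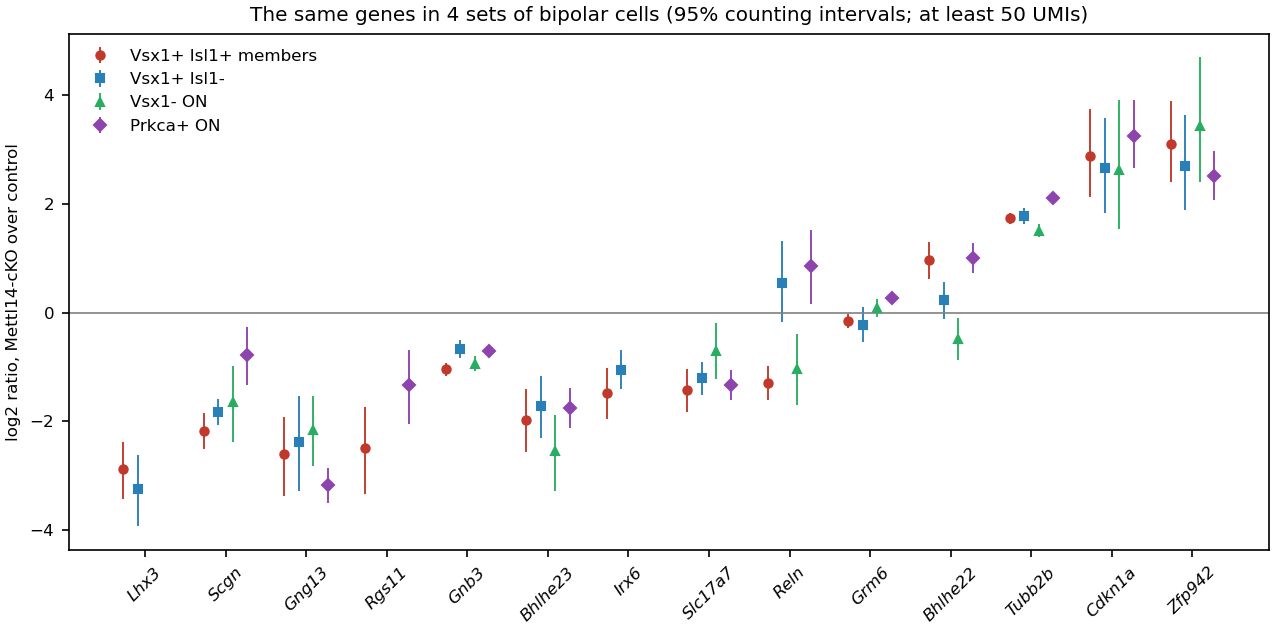
Log2 ratios, Mettl14-cKO over control, of 14 genes in members and in 3 other sets of bipolar barcodes, with 95% counting intervals; a set with under 50 UMIs of a gene has no point. Tubb2b, Cdkn1a and Zfp942 lie above 0 and Scgn, Gng13, Gnb3 and Slc17a7 below 0 in every set shown, while Reln lies at -1.29 in members and 0.85 in Prkca-positive barcodes.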

How the data were processed

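Dissociated P7 mouse retina was measured in 1 Mettl14-cKO and 1 control library. Raw UMI counts of 32285 genes in each barcode were deposited. Cell Ranger 6.1.1 and the build mm10 are named in the submitters' processing notes. Group membership followed the sample titles.

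The members and gene lists were chosen with earlier results of these data known. Counts were summed over members per library and scaled to CPM (python 3.11.15, numpy 2.4.6, scipy 1.17.1). Levels carry exact Poisson, ratios exact conditional and shares exact Clopper-Pearson 95% intervals; all cover counting error only, and with 1 library per genotype no test or p-value is given. Because PCR duplicates are collapsed by UMIs, counts are molecules. For matched depth, each barcode was thinned once to 1500 UMIs, and shallower barcodes were left out (5 Mettl14-cKO and 8 control members). Doublets were marked with Scrublet (scanpy 1.11.5, expected rate 0.8% per 1000 barcodes), at 4.24% of Mettl14-cKO and 6.87% of control barcodes, and were kept except in an alternative. The ratio code was tested on simulated data.

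Named genes were the rule genes, markers and Mettl14; the 15 highest and 15 lowest ratios, where a gene needed 100 UMIs in all and detection in 10% of the members of a library; up to 4 genes per list with the largest ratios; the 12 genes highest against the other bipolar sets; and the 12 most variable. Other list members named in the text were chosen after their values were seen. Coordinates are those of GENCODE vM21 (GRCm38), which holds 32235 of the gene IDs. Empty droplets and reads were not used here. Some genes are not reported here.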

Additional observations from a re-analysis of the deposited data

Results flagged for a closer look

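A few genes were past 1.5-fold in opposite directions in members and in another set of bipolar barcodes of the same libraries. None of these differences was tested, since each set has 1 library per genotype, and the 113 genes named here were all screened for such pairs.

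Reln had a log2 ratio of -1.29 in members and 0.85 in barcodes with Isl1 and Prkca, where its levels were 17.4 CPM in the Mettl14-cKO library and 9.67 CPM in the control library. Grik1 had -0.74 in members and 1.01 in the Prkca-positive barcodes, at 40.2 and 19.9 CPM; thinned to 1500 UMIs, Grik1 in members was at -0.12 and was not called. The rod genes Nr2e3 and Pde6g had 0.68 and 0.87 in members, and -0.63 and -0.62 in the Prkca-positive barcodes. In members thinned to 1500 UMIs they were at 0.12 and 0.34, so that their calls in members were lost while the ratios stayed above 0. No thinned ratio is given for the Prkca-positive barcodes, so the 2 sets were not compared at matched depth. The unthinned rod marker sum also went opposite ways, at 4258 CPM in Mettl14-cKO and 3052 CPM in control members, and at 6691 and 13081 CPM in the Prkca-positive barcodes. Lrp1b, a lipoprotein receptor family gene, had 0.80 in members and -0.67 in barcodes with Isl1 and Grm6 and no Vsx1, where it had 75.1 and 119.8 CPM. Thinned, Lrp1b in members was at 1.59.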

How the results depend on the processing

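The log2 ratio of the share of members, -0.73 (1.90% in the Mettl14-cKO library and 3.16% in the control library), stayed below 0 under each alternative given here, and 1 further setting is not reported here. It was -1.04 with all barcodes thinned to 1500 UMIs, -1.25 with at least 2 UMIs each of Vsx1 and Isl1 (0.890% and 2.11%) and -1.05 with a UMI of Grm6 required (1.37% and 2.83%). The counts of genes higher and genes lower, 840 and 916, were 265 and 280 at a fold of 2, 343 and 445 after thinning, 508 and 509 at a minimum of 100 UMIs and 1371 and 1439 at a minimum of 20. The median of all genes, -0.06, was 0.00 when centred and -0.04 with mitochondrial and ribosomal protein genes left out of the total. The Mettl14 ratio ran from -1.37 to -0.22, the weakest after thinning, where it rests on few UMIs. Of the 113 named genes 87 were past 1.5-fold; all 87 kept their sign and 73 stayed past it under the 7 of these alternatives that gave single-gene ratios. Medians of lists ran from -0.61 to -0.43 for the mGluR6 cascade, -0.44 to -0.37 for ribbon synapse genes and -0.79 to -0.67 for glycolysis, while those of OFF cone bipolar genes (-0.02 to 0.81) and adhesion genes (-0.20 to 0.12) crossed 0. That of progenitor transcription factors ran from 0.26 to 1.48. Thinned lists kept the minimum of 50 UMIs, so a thinned median can rest on fewer genes. Thinned ratios of single genes were not held to that minimum, so those of sparse genes rest on few UMIs. The cause was not tested. No paired analysis was possible because each genotype has 1 library and the labels give no replicate number; for the same reason no replicate could be left out. Depth limits genes under 50 UMIs in the members, which were not called.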
